A study of Petromyzon marinus with 2 samples.

Results

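The genes of the cilium and of intraflagellar transport (IFT, the movement of cargo along the axoneme of a cilium) were followed through the cell classes of the adult sea lamprey (Petromyzon marinus) retina. Members were the features of the deposited gene list whose name starts with IFT, BBS, CEP, KIF, DNAH, DNAI, DYNC, TTC, CFAP or TMEM67 and that had a UMI in at least 50 cell barcodes. A UMI (unique molecular identifier) is a tag added to a transcript at capture, by which copies made in amplification are collapsed to 1. Of 24979 genes in the list, 101 had such a name and 98 had UMIs in 50 barcodes or more. Just inside the limit were DNAH9 with 51 barcodes, KIFC1 with 71 and CFAP43 with 73, and just outside were DNAI2 with 38, TTC29 with 30 and CFAP92 with 27. The rule reads names only, and 47.9% of the genes carried a LOC number and 25.1% an MSTRG number in place of a symbol, so cilium genes without a symbol are not among the members. The members held 10 IFT-B subunits or partners, 1 IFT-A subunit (TTC21B), 8 BBSome subunits or chaperones, 5 ciliary motor genes, 7 other kinesin names, 8 axonemal dyneins, 22 CFAP, 21 CEP and 15 other TTC genes, and TMEM67.

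A photoreceptor detects light in its outer segment, which is a modified primary cilium that is joined to the cell body by a connecting cilium with the structure of a transition zone. IFT trains are built from the IFT-B and IFT-A complexes. They are carried towards the tip by kinesin-2 and back to the base by cytoplasmic dynein 2, of which DYNC2H1 is the heavy chain. The BBSome is a coat-like complex of Bardet-Biedl syndrome proteins that rides on IFT trains and moves membrane proteins out of the cilium, and in mammals its loss leads to photoreceptor degeneration. CEP proteins belong to the centrosome and the basal body. CFAP proteins and the axonemal dyneins of the DNAH and DNAI families belong for the most part to cilia and flagella that beat. Roles given below are those known in jawed vertebrates or in green algae, not in the lamprey.

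Dissociated retinas of adult sea lampreys, for which no treatment is named, were profiled as single cells in droplets, in 2 replicates of 1 library each, with no other condition. Nothing in the labels ties a library to particular animals, while the study calls its replicates biological. The library was a block in the fits, so p-values rest on how differences between classes varied between these 2 libraries. All classes share 1 estimate of that variation, which may be technical. The library of replicate 1 had 87882951 UMIs over 12933 barcodes and that of replicate 2 had 117426390 UMIs over 15958 barcodes. The libraries shared 83 barcode sequences. The files name no cell types, so cells were placed in 7 classes by fixed limits on the UMIs of marker genes, and cells that met several limits were left out.

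Photoreceptor-like cells were those with a UMI of MSTRG.4782 or MSTRG.12092, at a summed level of at least 300 CPM (UMIs per 1e6 UMIs). MSTRG.4782 is listed as a copy of CNGB1, the beta subunit of the cyclic nucleotide-gated channel of rods. MSTRG.12092 is listed as an arrestin of the ARRB1 type. The other classes are called by their gene, since most of their markers had no name in the list. They were the GLUL class (glutamine synthetase, a marker of Müller glia), the SLC5A7 class (the choline transporter, a marker of starburst amacrine cells), the BEGAIN class (with LHX1 or SALL3, which are markers of horizontal cells), the CHTF18 class (listed for bipolar cells), the SLC32A1 class (the vesicular GABA and glycine transporter, a marker of amacrine cells) and the GAD1 class (used here for ganglion cells). The photoreceptor gate held 199 cells in replicate 1 and 120 in replicate 2, against 669 GLUL, 1882 SLC5A7, 381 BEGAIN, 254 CHTF18, 7578 SLC32A1 and 9657 GAD1 cells in all. Photoreceptor-like cells were shallow, with a median of 939 UMIs in replicate 1 and 2003 in replicate 2, against medians of 5247 to 16553 UMIs in the other classes. Only 1 gate UMI was held by 153 of the 199 cells and 96 of the 120 cells. At 1 UMI the limit of 300 CPM shuts out deep cells, so this low depth follows in part from the gate. With the gate at any level the medians were 1022.5 and 2294 UMIs. The summed UMIs of the photoreceptor-like cells came to 264889 and 250167, so that 1 UMI was worth 3.78 and 3.997 CPM. A summed level cannot tell more cells with a transcript from more transcripts per cell.

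The photoreceptor gate held 3 of 5 photoreceptor markers at levels above the other classes in both libraries, and markers of other cells as well. Recoverin (RCVRN) stood at 79.3 and 320 CPM in photoreceptor-like cells of replicates 1 and 2, against at most 0.972 CPM in any other class. CDHR1, a cadherin of the outer segment base, stood at 155 and 188 CPM, against at most 31.5 CPM. ANKRD33B stood at 94.4 and 136 CPM, against at most 24.0 CPM, and the interphotoreceptor protein gene RBP3 was at 0 in replicate 1 and at 15.99 CPM in replicate 2, against 15.7 and 18.8 CPM in the CHTF18 class, and did not set the gate apart. EYS, at 11.3 and 56.0 CPM against 14.3 to 67.9 CPM elsewhere, did not either, and was not used to pick marker cells. Of 15 photoreceptor markers listed, 5 had a name in the files, and their sum was 340 and 716 CPM in photoreceptor-like cells against 26.1 to 70.1 CPM in the other classes. GAD1 stood at 332 and 224 CPM in photoreceptor-like cells, against 2571 and 2238 CPM in the GAD1 class and 849 and 813 CPM in the SLC32A1 class. SLC17A6, a vesicular glutamate transporter, stood at 185 and 168 CPM in photoreceptor-like cells, against 699 and 749 CPM in the CHTF18 class and at most 57.3 CPM in the others. RBPMS, a ganglion cell marker, had 1 UMI in the gate. The 3 horizontal cell markers found of 5 summed to 132 and 164 CPM. The GAD1 class had limits too: RBPMS was seen in only 16.9% and 11.9% of its cells, and SLC17A6 stood at 15.7 and 31.9 CPM. GAD1 was also seen in 57.6% and 62.1% of SLC32A1 cells. Whether the GAD1 class holds amacrine cells was not tested. Only 34 of the 199 cells and 29 of the 120 cells of the gate had a UMI of RCVRN, CDHR1, RBP3 or ANKRD33B. Values are therefore also given for these 63 cells alone and for the cells of the gate without such a UMI.

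BBS5, a BBSome subunit that binds phosphoinositides, was the member with the largest fold between photoreceptor-like cells and the mean of the other 6 classes. It stood at 83.1 CPM (22 UMIs) and 64.0 CPM (16 UMIs) in photoreceptor-like cells of replicates 1 and 2, against 0 to 1.43 CPM in the 12 sums of the other classes. No sum of another class came near the photoreceptor-like values. The log2 fold change was 7.36 ± 0.46 (SE), with an adjusted p of 4.5e-08 (edgeR quasi-likelihood test, adjusted over 14741 genes). BBS5 passed the filter on low counts only through the photoreceptor-like sums, where it is high. Its adjusted p with the filter therefore adds no support beyond the levels. With no filter the log2 fold change was 7.24 (adjusted p = 8.2e-16). BBS5 was also called higher against each of the 6 classes taken alone, by 6.93 to 8.22 on the log2 scale. These calls rest on the same photoreceptor-like sums and the same filter, so they add no separate support. Pooled over both libraries, BBS5 stood at 73.8 CPM in photoreceptor-like cells (95% exact Poisson interval 52.2 to 101 CPM, for counting error only), against 0.637 CPM in the BEGAIN class, the next in order, and the intervals of all 6 other classes overlapped among themselves. Its gene model is MSTRG.1371, and in the RefSeq annotation of another assembly it lies between KLHL41 and METTL5. KLHL41 had 0 UMIs in photoreceptor-like cells, and METTL5 stood at 15.1 and 19.99 CPM there, against at most 17.8 CPM elsewhere (adjusted p = 0.69), so neither neighbour followed BBS5.

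BBS9 and BBS7, which belong to the same complex, were higher in photoreceptor-like cells by a smaller margin. BBS9, a beta-propeller subunit, stood at 121 CPM (32 UMIs) and 104 CPM (26 UMIs) in photoreceptor-like cells, against 17.9 to 58.6 CPM elsewhere. The groups did not overlap, and the CHTF18 class of replicate 1 was the nearest. The log2 fold change was 2.04 ± 0.25 (SE), with an adjusted p of 6.6e-05, and BBS9 was called higher against each class alone, by 1.64 (CHTF18) to 2.44 (BEGAIN). BBS7, also a beta-propeller subunit, stood at 34.0 and 36.0 CPM (9 UMIs in each library), against 4.49 to 16.1 CPM elsewhere, again without overlap. Its log2 fold change was 1.65 ± 0.39 (SE), with an adjusted p of 0.022. It was called higher against every class alone but CHTF18, where the adjusted p was 0.058. With the gate at any level, the log2 fold changes fell to 1.11 for BBS9 (adjusted p = 0.0049) and 1.12 for BBS7 (adjusted p = 0.0385). Both were still called. Taken class by class, 6 of 84 members were called higher over GLUL cells (12.7% of all genes were), 10 over SLC5A7 cells (5.6%), 5 over BEGAIN cells (4.27%), 2 over CHTF18 cells (5.51%), 5 over SLC32A1 cells (4.51%) and 6 over GAD1 cells (4.45%). Called lower were 8 against GLUL cells (13.4% of all genes), 2 against SLC5A7 cells (7.0%) and 1 against BEGAIN cells (5.28%). A further 2 were lower against CHTF18 cells (4.73%), 2 against SLC32A1 cells (4.48%) and 1 against GAD1 cells (4.97%).

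**Figure D1:**
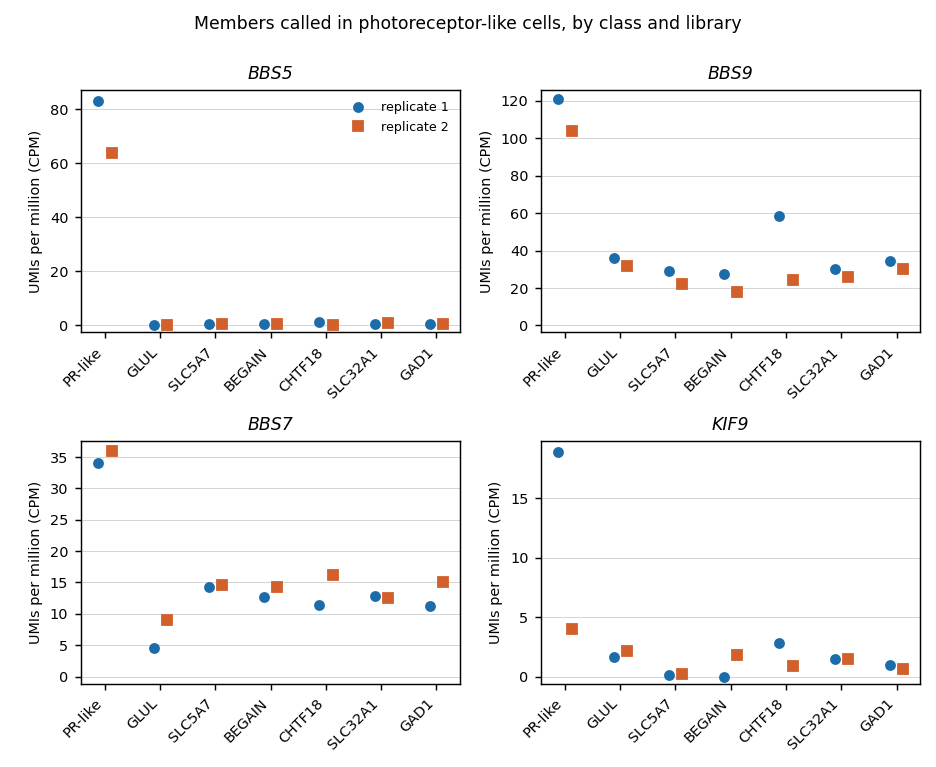
Level of BBS5, BBS9, BBS7 and KIF9 in CPM (vertical axes, linear) in each of the 7 classes (horizontal axes), with 1 point for each library. BBS5 stands at 83.1 and 64.0 CPM in photoreceptor-like (PR-like) cells and at 1.43 CPM or less elsewhere; BBS9 and BBS7 are raised in both libraries, and KIF9 mostly in replicate 1.

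The fourth member called was KIF9, a kinesin of motile cilia and sperm flagella. It stood at 18.9 CPM (5 UMIs) in photoreceptor-like cells of replicate 1 but at 3.997 CPM (1 UMI) in replicate 2, against 0 to 2.86 CPM elsewhere. The log2 fold change was 3.68 ± 0.96 (SE), with an adjusted p of 0.037, and it rests on 6 UMIs. Without replicate 1 its log2 fold change was 2.29, and without replicate 2 it was 5.02. The call ended when the gate was set at any level (adjusted p = 0.14) or when all other cells were summed (adjusted p = 0.070). Against single classes KIF9 was called higher over SLC5A7, SLC32A1 and GAD1 only.

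These 4 of 84 members tested (4.76%) were called higher, which took a 2-fold difference or more and an adjusted p below 0.05, where 3.37% of all 14741 genes tested were. No member was called lower, where 0.868% of all genes were; 3 members were lower at an unadjusted p under 0.05, and DESeq2 also called 0 lower. The share of members called higher was thus near the background. The median log2 fold change was 0.14 over the members tested and -0.11 over all genes tested, and 14 members did not pass the filter on low counts. Of 7 BBSome or chaperone genes tested, 3 were called, and the rest of that group were not. BBS1 stood at a log2 fold change of 0.74, TTC8 (the subunit BBS8) at 0.53, BBS4 at -0.60 and BBS2 at -0.90. Summed over the 8 members of the group, BBSome and chaperone genes came to 310 and 284 CPM in photoreceptor-like cells, against 87.7 to 167 CPM elsewhere. Without BBS5 and BBS9 the sum was 106 and 116 CPM, against 69.2 to 107 CPM, where the CHTF18 class of replicate 1 overlapped.

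**Figure D2:**
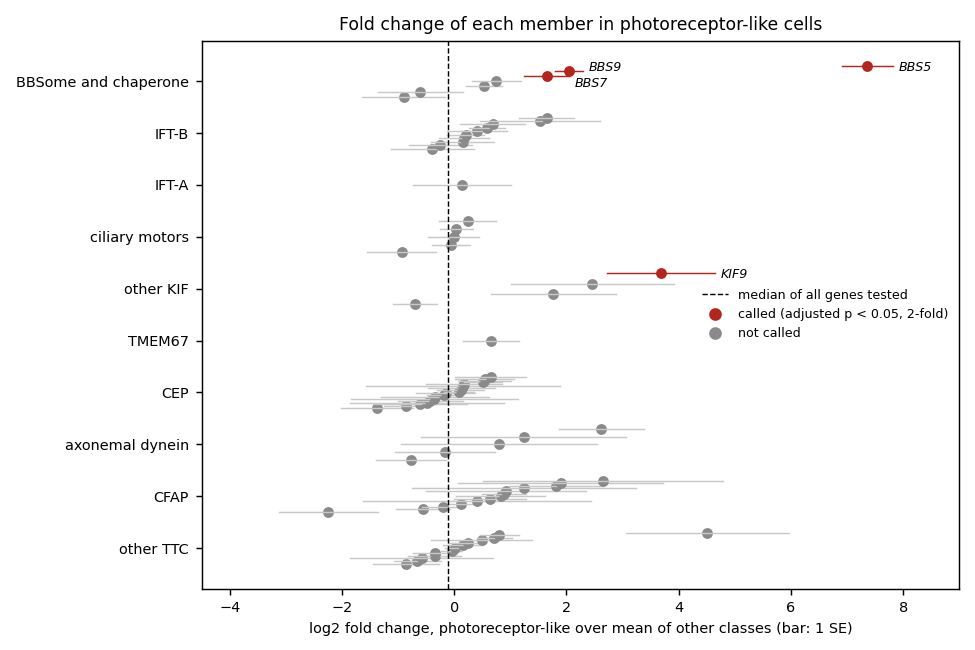
Log2 fold change of photoreceptor-like cells over the mean of the other classes (horizontal axis) for the 77 tested members with a UMI in photoreceptor-like cells, by gene group (vertical axis); bars show 1 SE, red points are called and the dashed line is the median of all genes tested. BBS5 stands alone at 7.36, with KIF9, BBS9 and BBS7 the only other members called; 7 tested members at 0 UMIs in photoreceptor-like cells are left out.

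The next members in order of adjusted p also rested on few UMIs. IFT52, a core subunit of IFT-B, stood at 30.2 and 11.99 CPM (8 and 3 UMIs) in photoreceptor-like cells, and its log2 fold change of 1.65 had an adjusted p of 0.067. DNAH6, an inner-arm axonemal dynein, stood at 3.78 and 19.99 CPM (1 and 5 UMIs), with a log2 fold change of 2.62 and an adjusted p of 0.064. TTC25, a docking factor of outer dynein arms, stood at 7.55 and 3.997 CPM (2 and 1 UMIs), with a log2 fold change of 4.51 and an adjusted p of 0.10. All of them passed the threshold with DESeq2, at adjusted p of 0.0050, 4.5e-04 and 0.0011 in that order. DESeq2 was run on the same filtered genes. TTC25 met the filter on low counts through the photoreceptor-like sums, where it is high. In every other class it stood at 1.29 CPM or less over both libraries.

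The transport machinery itself was not called different between photoreceptor-like cells and the mean of the other classes. Of 10 IFT-B members tested, 0 were called and 8 had a positive fold change. Over all 14741 genes, 3.37% were called higher, 0.868% were called lower and 6470 had a positive fold change. At these shares 0 calls among 10 members is near the background. IFT52 was at an unadjusted p under 0.05, and DESeq2 called IFT52 alone. Against single classes, 1 of the 10 was called higher over each of SLC5A7 (5.6% of all genes), SLC32A1 (4.51%) and GAD1 cells (4.45%). Against GLUL cells 1 was called lower (13.4%), and none was called against BEGAIN or CHTF18 cells. The IFT-B sum was 227 and 144 CPM in photoreceptor-like cells, inside the range of the other classes, which ran from 131 CPM in a BEGAIN sum to 258 CPM in a GLUL sum. IFT20, which also works at the Golgi, showed how wide the error was: it stood at 79.3 CPM in replicate 1 and 15.99 CPM in replicate 2. The only IFT-A member, TTC21B (IFT139), stood at 11.3 CPM and 0. Of the motors, DYNC2H1 stood at 68.0 and 36.0 CPM, against 28.7 to 106 CPM elsewhere. KIF17, KIFAP3 (the non-motor subunit of kinesin-2), KIF27 and KIF19 had log2 fold changes of 0.24, -0.06, -0.01 and -0.94. None of these motors was called against the mean of the other classes. Against single classes, 1 of the 5 was called lower against BEGAIN (5.28% of all genes) and 1 against SLC32A1 cells (4.48%). TMEM67, a membrane protein of the transition zone, stood at a log2 fold change of 0.66 and was not called.

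Of the 10 members with the most UMIs in photoreceptor-like cells, 8 were not called. UMIs are counted at the 3′ end and are not divided by transcript length. Besides BBS9 and BBS5, they included TTC39C (91.2 CPM over both libraries), TTC27 (79.6 CPM), CFAP20 (73.8 CPM), DYNC2H1 (52.4 CPM), IFT20 (48.5 CPM), TTC37 (44.7 CPM) and CFAP298 (42.7 CPM). The log2 fold changes of these lay between -0.20 (CFAP298) and 0.21 (IFT20). TTC37 belongs to the cytoplasmic SKI complex of RNA decay, so a name with this prefix need not be a cilium gene. Of the 98 members, 62 had a UMI in the photoreceptor-like sums of both libraries and 16 in neither. All members together came to 1831 and 1355 CPM in photoreceptor-like cells, against 1461 to 1821 CPM in the other classes, so 1 photoreceptor-like sum lay above that range and the other below it.

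The BBSome calls were followed into the parts of the gate, which were chosen after the data were seen. In the 63 cells with a photoreceptor marker, BBS5 stood at 211 CPM (16 UMIs) and 162 CPM (14 UMIs). In the cells of the gate without a marker it stood at 31.7 and 12.2 CPM. Cells with a marker were deeper, with medians of 1777 and 2511 UMIs, against 939 and 2003 UMIs in the whole gate, so shares of cells are not compared between them. BBS9 stood at 343 and 243 CPM with a marker, and at 31.7 and 30.5 CPM without one. BBS7 stood at 52.8 and 81.0 CPM with a marker, and at 26.4 and 12.2 CPM without. The levels of all of these were thus higher in the cells with a marker in both libraries. Fitted with the marker cells alone, BBS5 had a log2 fold change of 8.17, BBS9 of 2.997 and BBS7 of 2.16, all called. Fitted with the cells without a marker, BBS5 alone was called (5.79, adjusted p = 0.0027), while BBS9 stood at 0.31 (adjusted p = 0.83) and BBS7 at 0.97 (adjusted p = 0.57). In both fits BBS5 passed the filter on low counts only through the photoreceptor-like sums, where it is high. Its adjusted p there add no support beyond the levels. With the marker cells alone, KIF9 (4.36), DNAH6 (3.59) and TTC25 (5.78) were called higher and TTC39C, a TTC gene of little-known function, was called lower (-1.36, adjusted p = 0.024). TTC25 met the filter on low counts there through the photoreceptor-like sums, so its call adds no support beyond the levels. In that fit 6 of 84 members were called higher (7.14%), where 4.56% of all genes were. Called lower was 1 member (1.19%), where 4.36% of all genes were.

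The gate genes also differed. Cells with a UMI of the CNGB1 copy only (48 cells) held 22 BBS5 UMIs, or 227 CPM (interval 142 to 344). Cells with a UMI of the arrestin only (270 cells) held 15 BBS5 UMIs, or 36.0 CPM (interval 20.2 to 59.4). BBS9 stood at 217 CPM in cells with the CNGB1 copy (interval 134 to 331) and at 88.8 CPM in cells with the arrestin (interval 62.6 to 122). All 3 TTC25 UMIs and 5 of the 6 DNAH6 UMIs lay in the 48 cells with the CNGB1 copy. These intervals cover counting error only, and whether the gate genes mark different photoreceptor types was not tested.

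Of the 161 barcodes with a BBS5 UMI, 27 were in the photoreceptor gate and 21 met it together with another gate. A further 83 were in another class alone, 13 met several other gates and 17 met none. The 83 spread over 20421 cells of the 6 other classes. For BBS9, found in 4698 barcodes, 37 were in the photoreceptor gate and 3990 in the other classes. BBS5 was thus rare in the retina outside the gate, and BBS9 was broadly present.

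Cells differed in depth between classes, so shares of cells with a UMI were compared after each cell was thinned to 1000 UMIs, which left 179 of the 319 photoreceptor-like cells. At that depth BBS5 was seen in 9 of 179 photoreceptor-like cells, or 5.03% (95% Clopper-Pearson interval 2.33 to 9.33%), against 0.0654% of GAD1 cells, 0.041% of SLC32A1 cells and 0.0535% of SLC5A7 cells. It was seen in 0 of 645 GLUL cells, which allows a share of up to 0.465%, in 0 of 351 BEGAIN cells (up to 0.855%) and in 0 of 232 CHTF18 cells (up to 1.29%). The share rests more on replicate 1, with 7 of 88 photoreceptor-like cells (7.96%), than on replicate 2, with 2 of 91 cells (2.20%; interval 0.267 to 7.72%). Cells are not replicates, so these intervals do not test a difference between classes. BBS9 was seen in 10.6% of photoreceptor-like cells (interval 6.51 to 16.1%), against 1.99% (BEGAIN) to 4.74% (CHTF18) of the other cells, where the CHTF18 interval was 2.39 to 8.33%. BBS7 was seen in 2.24% (interval 0.612 to 5.62%), against 0.57 to 1.42% elsewhere, and its interval overlapped those of other classes. In the fit of thinned cells given below, BBS7 was not called. Unthinned, BBS9 was seen in 11.6% of photoreceptor-like cells, against 16.3 to 30.5% of the deeper cells of the other classes, an order opposite to that of the CPM.

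**Figure D3:**
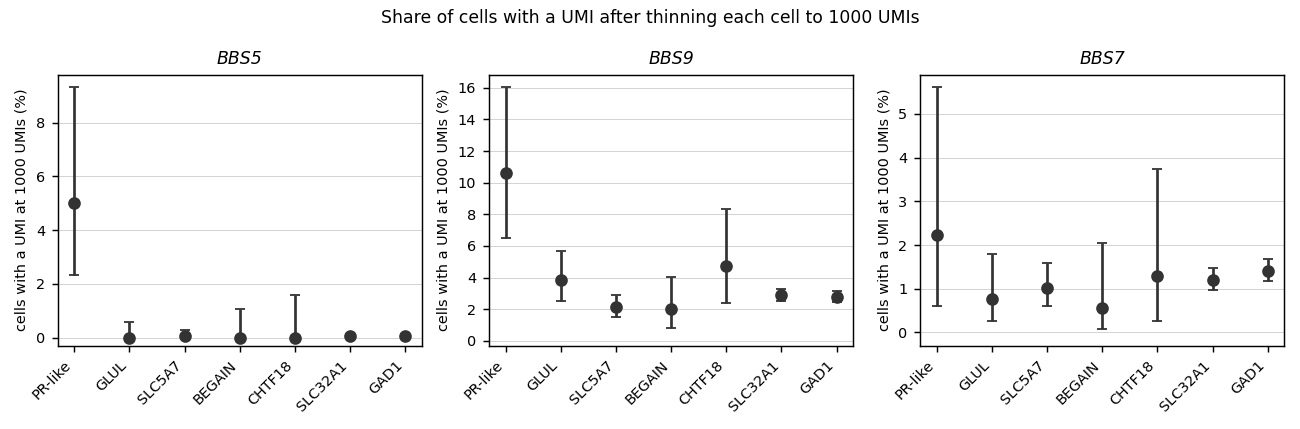
Share of cells with at least 1 UMI of BBS5, BBS9 and BBS7 (vertical axes, percent) in each class after every cell was thinned to 1000 UMIs, both libraries together; bars are 95% Clopper-Pearson intervals, for counting error only. For BBS5 the photoreceptor-like (PR-like) share is 5.03% and the other classes are at 0.0654% or less, and for BBS7 the intervals overlap.

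At matched depth BBS5 could be tested only with no filter on low counts. With every cell thinned to 1000 UMIs and no filter on low counts, BBS5 stood at 7.72 (adjusted p = 3.3e-05) and BBS9 at 2.21 (adjusted p = 1.3e-05), and BBS7 (1.31, adjusted p = 0.92) and KIF9 (4.07, adjusted p = 0.68) were not called. In cells of 500 to 3000 UMIs, again without the filter, BBS5 (7.19) and BBS9 (2.63) were called. With the filter kept, BBS9 was called in thinned cells (2.32, adjusted p = 1.1e-04), but neither BBS9 nor BBS5 could be tested in cells of 500 to 3000 UMIs. In that fit 0 of 10 members tested were called higher (edgeR), where 3.48% of all genes were. At an unadjusted p under 0.05, 0 of the 10 were higher.

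For comparison, a list of other cilium genes without these prefixes was followed in the same fit. Of 112 listed, 50 had a name in the files and 48 were tested. The list was chosen with earlier results of these data known. It holds CDHR1, which was also used above to describe the gate and to pick marker cells. The counts of calls are therefore given as a description only. In photoreceptor-like cells 9 of the 48 were called higher and 0 lower, where 3.37% and 0.868% of all genes were. With edgeR 1 was lower at an unadjusted p under 0.05. DESeq2 called 13 higher and 0 lower, where it called 5.62% and 0.706% of all genes. They included PCDH15 and ADGRV1, whose products form links at the photoreceptor cilium and its surrounding processes. PCDH15 stood at 585 and 684 CPM in photoreceptor-like cells, against 12.5 to 214 CPM elsewhere (log2 fold change 3.58 ± 0.15 SE, adjusted p = 6.4e-10). ADGRV1 stood at 83.0 and 80.0 CPM and was called (1.80, adjusted p = 9.4e-04) although the GLUL class, at 324 and 378 CPM, was higher still. The transition zone genes TMEM237 (34.0 and 80.0 CPM, against at most 14.3 CPM) and NPHP4 (336 and 280 CPM, against 71.8 to 293 CPM) were also called, as was INVS, with log2 fold changes of 5.21, 1.73 and 1.36. Others were CDHR1, described above, and SPAG17 (3.66) and DNAAF2 (5.999), motile cilium genes at 3 UMIs or fewer in each library. DNAAF2 stood at 7.55 and 3.997 CPM, against at most 1.43 CPM elsewhere. It passed the filter on low counts only through the photoreceptor-like sums, where it is high. NPHP4, TMEM237, CDHR1 and PCDH15 were also called higher in the CHTF18 class.

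The GLUL class had the most members called. It called 17 of 84 members higher (20.2%), where 19.7% of all genes were, and 13 lower (15.5%), where 16.8% were, so the shares matched the background and the members are given by name. CFAP206, a radial spoke factor of motile axonemes, stood at 8.41 and 14.9 CPM in GLUL cells, against at most 0.556 CPM in any other sum (adjusted p = 1.7e-07). Over both libraries this was 36.7 times its level in the SLC32A1 class, the next in order. Its levels in photoreceptor-like and CHTF18 cells were at 0, and a floor of 3 UMIs over both libraries makes the GLUL level at least 2.32-fold higher than the first and at least 8.18-fold higher than the second. TTC36, a TPR protein, stood at 12.9 and 24.0 CPM in GLUL cells, against at most 1.46 CPM (adjusted p = 8.5e-08). CFAP221, a central pair protein, stood at 7.29 and 4.92 CPM, against at most 0.896 CPM (adjusted p = 7.6e-06). No sum of another class overlapped for any of them. CFAP206, TTC36 and CFAP221 passed the filter on low counts only through the GLUL sums, where they are high. Their adjusted p therefore add no support beyond the levels.

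Further members higher in GLUL cells included TTC6 (33.7 and 26.0 CPM against at most 3.997 CPM), CEP152 (62.8 and 34.6 CPM against at most 13.3 CPM), a scaffold of centriole duplication, and DNAH6 (11.2 and 9.54 CPM). DNAH6 overlapped, since photoreceptor-like cells of replicate 2 stood at 19.99 CPM. Of 10 IFT-B members tested, 3 were called higher and 1 lower, where 19.7% and 16.8% of all genes were. These counts are near the background. IFT20 was higher (98.7 and 95.7 CPM against at most 79.3 CPM, log2 fold change 1.43). So was IFT46 (51.0 and 49.7 CPM against at most 37.7 CPM, 1.23). IFT52 was also higher (31.4 and 24.8 CPM against at most 30.2 CPM, 2.19). IFT172, the largest subunit, was called lower (6.17 and 5.54 CPM against 7.55 to 21.5 CPM, -1.05). Of the motors, KIF19, a depolymerizing kinesin of the ciliary tip, was called lower (7.85 and 12.2 CPM; -2.22), as was KIF17 (6.17 and 7.23 CPM; -1.05). CFAP52, an axonemal protein inside the doublet microtubules, was at 3.36 and 3.54 CPM in GLUL cells and at 3.78 and 3.997 CPM in photoreceptor-like cells, against 14.3 to 49.7 CPM in the 5 other classes. It was called lower in GLUL cells (-2.60, adjusted p = 4.9e-04) but not in photoreceptor-like cells (-2.24, adjusted p = 0.20), and its 2 photoreceptor-like values are 1 UMI each. BBS5 was called lower in GLUL cells (-2.23, adjusted p = 0.042) against a mean that holds the photoreceptor-like cells, and without those cells it did not pass the filter. The call also ended without the filter (adjusted p = 0.085) and with the class limits of the study (adjusted p = 0.056).

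**Figure D4:**
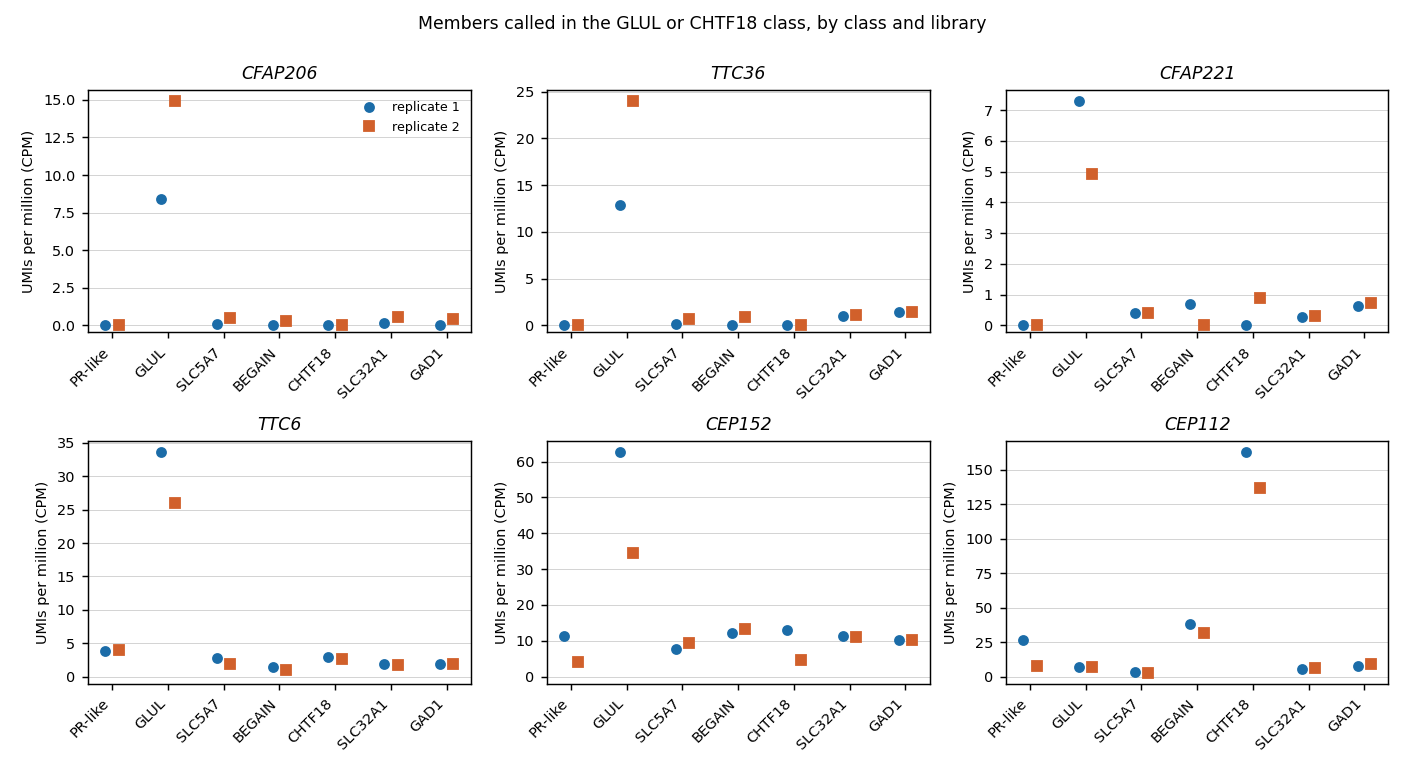
Level of CFAP206, TTC36, CFAP221, TTC6, CEP152 and CEP112 in CPM (vertical axes, linear) in each of the 7 classes (horizontal axes), with 1 point for each library. The first 5 peak in the GLUL class of both libraries and CEP112 peaks in the CHTF18 class, at 163 and 137 CPM.

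In the CHTF18 class, CEP112, a centrosomal coiled-coil protein, stood at 163 and 137 CPM, against 31.8 and 38.2 CPM in the BEGAIN class and at most 26.4 CPM in the others. Its log2 fold change was 4.02 ± 0.16 (SE), with an adjusted p of 9.7e-11, and with cells thinned to 1000 UMIs it was 4.16. CHTF18 cells called 8 members higher (9.52%), where 8.98% of all genes were, and 3 lower (3.57%), where 9.44% were. CEP78, a centriole wall protein whose loss causes cone-rod dystrophy with hearing loss in humans, was also called (11.4 and 10.8 CPM against at most 5.55 CPM; 2.25, adjusted p = 0.0020). DNAH3, an inner-arm dynein, was called too (18.6 and 14.3 CPM against at most 7.77 CPM; 2.16, adjusted p = 1.7e-04). Ciliary transport genes in this class were KIF17 (48.6 and 25.1 CPM against at most 19.99 CPM), IFT27, a small GTPase of IFT-B (40.0 and 41.2 CPM against at most 26.4 CPM), and TTC21B (12.9 and 11.7 CPM against at most 11.3 CPM). IFT20 was called lower (24.3 and 23.3 CPM; -1.08), and so were TTC12 (17.2 and 5.38 CPM; -1.86), a dynein arm assembly factor, and DNAH5, an outer-arm dynein heavy chain. DNAH5 had 0 UMIs in CHTF18 cells, and at a floor of 3 UMIs over both libraries it was at least 4.54-fold lower there than in the SLC32A1 class. The DNAH5 call ended with the class limits of the study (adjusted p = 0.060).

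The SLC5A7 class called 3 members higher (3.57%), where 9.77% of all genes were, and 6 lower (7.14%), where 7.37% were. CEP85L, a centrosomal protein of neuronal migration, stood at 18.1 and 15.6 CPM in SLC5A7 cells, against at most 7.37 CPM (3.76, adjusted p = 5.0e-07). CFAP70, an outer-arm component, differed between the libraries (2.36 and 10.8 CPM) and overlapped the GLUL values (6.73 and 4.62 CPM). CFAP52 was higher by 1.27, and without the photoreceptor-like cells by 0.93, which is under the 2-fold limit. Lower in SLC5A7 cells were KIF9 (0.0984 and 0.195 CPM; -3.68), CEP112 (3.54 and 2.43 CPM; -2.55), DNAH6 (0.59 and 0.584 CPM; -2.52) and IFT52 (5.61 and 2.92 CPM; -1.17), with adjusted p of at most 9.5e-04.

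The BEGAIN class called 4 members higher (4.76%), where 9.57% of all genes were, and 1 lower (1.19%), where 4.06% were. CFAP58 stood at 9.19 and 3.34 CPM in BEGAIN cells, against at most 4.14 CPM, so the groups overlapped. Its fold change of 2.97 turned to -3.47 with cells thinned to 1000 UMIs (adjusted p = 1.0). TTC32, a small TPR protein, stood at 15.6 and 7.89 CPM, against at most 3.78 CPM (2.23, adjusted p = 1.3e-04). KIF19 stood at 144 and 96.8 CPM, against 103 and 117 CPM in SLC32A1 cells and at most 92.2 CPM in the rest, and was called in both (1.67 and 1.35). CEP112 was the fourth (1.57), and TTC6 was lower (1.42 and 0.91 CPM; -1.72).

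The SLC32A1 class called 4 members higher (4.76%), where 9.84% of all genes were, and 5 lower (5.95%), where 4.78% were. The GAD1 class called 4 higher (4.76%), where 10.1% of all genes were, and 3 lower (3.57%), where 4.26% were. DNAH5 stood at 6.29 and 8.58 CPM in SLC32A1 cells and at 6.26 and 7.87 CPM in GAD1 cells, against at most 4.19 CPM in the other classes, and was called higher in both (2.71 and 2.69). The fitted size of these folds depends on the CHTF18 class, where DNAH5 was at 0. CFAP46, a central pair protein, was called in SLC32A1 cells (11.2 and 6.18 CPM; 1.99) and overlapped photoreceptor-like cells of replicate 1 at 7.55 CPM, which is 2 UMIs. CEP85L (7.37 and 6.02 CPM) was called in GAD1 cells at 2.08, and at 0.99 with DESeq2 and 0.63 without the photoreceptor-like cells it was under the 2-fold limit. CFAP52 was called higher in both classes (1.31 and 1.36). IFT52 was called lower in both (4.28 and 2.99 CPM in SLC32A1 cells, 4.93 and 4.20 CPM in GAD1 cells; -1.61 and -1.15, and -0.90 in GAD1 cells without the photoreceptor-like cells), and DYNC2H1 was lower in SLC32A1 cells (36.2 and 28.7 CPM; -1.06). CEP112 (-1.65) and CFAP251 (-1.25) were lower in SLC32A1 cells, and DNAH6 (-1.65) and BBS5 (-1.59, adjusted p = 0.032) in GAD1 cells. The BBS5 call is again against a mean that holds the photoreceptor-like cells. Without those cells BBS5 did not pass the filter, and with no filter the call ended (adjusted p = 0.054).

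**Figure D5:**
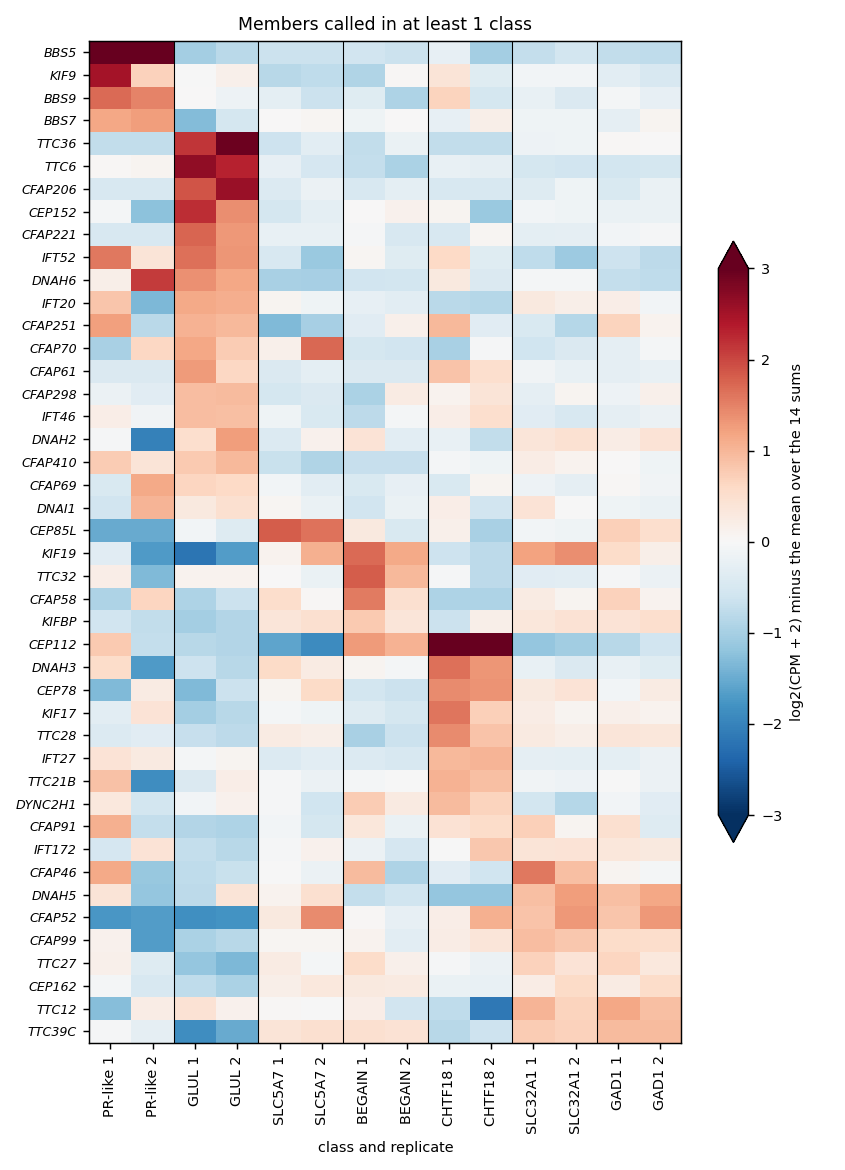
Level of the 44 members called in at least 1 class (rows) in the 14 class and library sums (columns, photoreceptor-like cells at the left), as log2(CPM + 2) minus the mean of each row over the 14 sums, with colours that saturate at 3 and -3. BBS5 is high only in the photoreceptor-like (PR-like) columns, TTC36, TTC6 and CFAP206 in the GLUL columns and CEP112 in the CHTF18 columns.

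In all, 44 of the 84 members tested were called in at least 1 class. The matching share of all genes was not counted, so this number is not read as a trait of the members. Both sums of photoreceptor-like cells stood above the 12 other sums for 7 of 98 members: BBS5, BBS9, BBS7, KIF9, TTC25, TTC5 and IFT80. Of the 16755 genes with UMIs in at least 50 barcodes, 2.96% did so. TTC5 and IFT80 were not called, and IFT80 had 2 UMIs in photoreceptor-like cells. The same held for 13 members in the GLUL class (13.8% of genes), 8 in CHTF18 (6.98%), 2 in SLC5A7 (4.97%), 2 in BEGAIN (6.23%), 1 in SLC32A1 (4.86%) and 1 in GAD1 (3.59%). As a description, the patterns most alike over the 14 sums, by Pearson's r of log2(CPM + 10), were CFAP206 with TTC36 (0.99), BBS10 with KIFC1 (0.97), TTC6 with CFAP221 (0.96), BBS10 with CEP70 (0.94) and TTC6 with CFAP206 (0.93). The points share libraries and differ in depth, and KIFC1, BBS10 and CEP70 had no UMI in the photoreceptor-like sum of replicate 1 and at most 2 in that of replicate 2.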

How the data were processed

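Single cells were captured on the Chromium 3' platform. The matrices hold raw UMI counts deposited by the authors, made with Cell Ranger (7.0.1 in the matrix headers and the study's methods, 6.0.1 in the labels) against the kPetMar1.pri genes extended with StringTie models, which carry MSTRG numbers. The labels name a cell sort and the study's methods do not. Members and gene lists were chosen with earlier results of these data known.

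Cells with at least 500 UMIs and 330 to 8950 genes were kept, which removed 30 and 22 barcodes. The gates needed at least 3 GLUL UMIs at 1000 CPM, 2 SLC5A7 UMIs, 1 BEGAIN UMI with LHX1 or SALL3, 1 CHTF18 UMI without SLC32A1, GAD1 or SLC5A7, 1 SLC32A1 UMI with fewer than 2 of SLC5A7, or 2 GAD1 UMIs without SLC32A1 or SLC5A7. In the libraries 302 and 724 cells met several gates and were left out, and 3524 and 3549 met none. No doublet caller was run.

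UMIs were summed per class and library into 14 sums and tested with edgeR 4.0.16 (R 4.3.3; TMM, filterByExpr, quasi-likelihood F test), with the library as a block and Benjamini-Hochberg adjustment over all genes. Each class was set against the mean of the fitted log2 levels of the other 6. A call needed an adjusted p under 0.05 and a 2-fold difference, and the SE is the log2 fold change divided by the root of F. The block is given by the design, since the 7 sums of a library come from the same preparation; the differences between libraries correlated between classes at r of 0.14 to 0.88 over 7206 genes. The edgeR fit was tested on simulated data. Folds were set there only in genes with more photoreceptor-like UMIs than BBS7 and sparser members such as IFT52, KIF9, DNAH6 and TTC25. The check therefore does not cover these members. Named were the members called in photoreceptor-like cells, the 10 with most UMIs there, the 3 called members of largest fold in each direction in every other class, and IFT, BBS and motor members called in any class; further members were named after their values were seen. Some genes that the rule or the lists take in are not reported here. Alternatives were DESeq2 1.42.0, other filters, gates, depths and cell limits (among them the limits per class used in the study), no block, and each library left out. Numpy 2.4.6, scipy 1.17.1, pandas 2.3.3 and matplotlib 3.10.9 were used in Python 3.11.15. Shares of cells have Clopper-Pearson intervals, levels exact Poisson intervals, and a count of 0 a limit of 3 counts.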

Additional observations from a re-analysis of the deposited data

Results flagged for a closer look

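The 204 cells that met the photoreceptor gate together with another gate were left out of the main comparisons and entered only alternative gates. With several gates kept in the first, they were in the photoreceptor-like class, which then held 523 cells. In these cells BBS5 stood at 74.4 CPM over both libraries (55 UMIs in 21 cells; interval 56.0 to 96.8), above the level of every other class. BBS9 stood at 109.5 CPM (interval 87.0 to 136) in the same cells. BBS7 stood at 27.0 CPM (interval 16.5 to 41.8) and KIF9 at 16.2 CPM (interval 8.38 to 28.3). All of them lay above the levels in the 6 other classes. Whether these barcodes hold more than 1 cell or free RNA was not tested.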

How the results depend on the processing

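Shares of all genes called follow each count in brackets. The count of 4 members called higher in photoreceptor-like cells (3.37%) became 7 with DESeq2 (5.62%). It became 9 with cells of several gates kept in the first gate (4.45%). With cells thinned to 1000 UMIs it was 1 (3.39%), with 35 members tested. In cells of 500 to 3000 UMIs it was 0 (3.48%), with 10 tested with edgeR and 0 of them higher at an unadjusted p under 0.05. Without the filter on low counts it was 2 at either depth (1.47% at both). In the gate with a marker it was 6 (4.56%), and in the gate without marker cells it was 1 (0.925%). The count of 0 called lower (0.868%) became 1 in the gate with a marker (4.36%) and 2 with all other cells summed (4.06%). In cells thinned to 1000 UMIs, GLUL cells had 7 members higher (19.5%) and 5 lower (16.5%). At that depth SLC5A7 cells had 3 lower (6.07%), BEGAIN cells 0 lower (1.64%), CHTF18 cells 4 higher (8.25%) and SLC32A1 cells 3 lower (4.05%). Thinned without the filter, these were 11 higher (11.1%) and 4 lower (7.11%) for GLUL, and 0 lower (0.73%) for BEGAIN. For CHTF18 there were 3 higher (3.55%), and for SLC32A1 7 higher (6.61%) and 3 lower (1.58%). In this fit the folds of CFAP58 in BEGAIN cells (-3.47) and BBS5 in GAD1 cells (0.61) changed sign. The cause of these changes was not tested. In cells of 500 to 3000 UMIs, where 10 members could be tested, GLUL cells had 0 higher (5.24%) and 1 lower (4.32%). CHTF18 cells had 1 higher (4.74%) and 0 lower (2.24%). Counts were 0 in both directions in SLC5A7 (11.1% higher and 4.61% lower) and BEGAIN cells (4.98% and 0.764%). They were also 0 in SLC32A1 (6.11% and 2.74%) and GAD1 cells (3.9% and 0.527%). At full depth without the filter GLUL cells had 8 lower (11.2%) and GAD1 cells 7 higher (8.35%). DESeq2 gave 10 lower in SLC5A7 cells (10.3%) and 6 lower in GAD1 cells (6.01%). With several gates kept in the first, BEGAIN cells had 7 higher (9.89%) and 6 lower (7.05%) and GAD1 cells 5 lower (4.41%). Without the photoreceptor-like cells BEGAIN had 2 lower (4.46%), and GAD1 7 higher (10.3%) and 1 lower (3.85%). The fit with no replicate block changed the call of none of the 38 named results. It called 5 members higher in photoreceptor-like cells (3.45%). The share of all genes called differed between settings in the other classes as well, so the counts there are given as a description only.

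The thinned share of photoreceptor-like cells was 2.19% for BBS5 and 3.14% for BBS9 at 500 UMIs per cell, and 11.1% for BBS5, 18.5% for BBS9 and 0% for KIF9 in marker cells. Leaving out a library gave 2.20 to 7.96% for BBS5, 7.69 to 13.6% for BBS9, 0 to 4.55% for BBS7 and 0 to 2.27% for KIF9; counts of calls could not be tested with 1 library. Of 415 alternative values of named genes, 341 kept their call or, with a library left out, stayed within 1 SE of the main value. Of the rest, 40 lost their call, 32 moved by more than 1 SE and 2 changed sign. Moves by more than 1 SE were counted only with a library left out, and other settings were judged by call and sign alone. A kept call can therefore hide a changed fold: that of BBS9 went from 2.04 to 1.11 with the gate at any level. Without replicate 1, 19 moved and 19 did not, and without replicate 2, 13 moved and 25 did not. The 515056 UMIs of photoreceptor-like cells limit every comparison with them.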
